A study of Mus musculus with 24 samples.

Results

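The fatty acid transport genes described here are 5 members of the Slc27 family (Slc27a1, Slc27a2, Slc27a3, Slc27a4 and Slc27a6) with Cd36, Lpl and Gpihbp1, 8 of the 55421 genes in each deposited count table. They were taken by gene symbol, matched to Ensembl identifiers through GENCODE mouse release 21, and all 8 passed the filter on low counts. The set was chosen by its place in 1 pathway and on measured values of these libraries, namely the fold changes of Slc27a2 with 17β-estradiol (E2) against vehicle and with estetrol (E4) against E2. Slc27a2 is therefore described without a test, and counts of genes passing a test are over the other 7.

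RNA sequencing was done on uninjured carotid arteries of C57BL/6 mice, which the study describes as ovariectomized females for vehicle and E4. It states that the E2 data came from the same experiment. The 24 libraries fall into 4 groups of 6, each library with its own number (C2, C3 and so on) in its title. The groups are vehicle (titled OVX), E2, E4 (a natural estrogen of the fetal liver) and tamoxifen (TAM, a selective estrogen receptor modulator). The labels give an age of 9 weeks and 3 weeks of treatment for the series, whereas the methods of the study describe ovariectomy before pellet implantation and a shorter treatment. Ovariectomy and the dosing of the TAM mice are not given in the sources used here. The labels do not say that the 6 libraries of a group came from separate animals, so p-values measure only the spread between libraries. The study describes fewer samples per group for its sequencing than the 6 libraries used here. Libraries titled E4 carry the treatment entry Placebo, as vehicle does, and were placed in E4 by title. E2 and E4 were delivered by pellets of unequal hormone mass, which the study set to reach a like estrogenic effect on the uterus, so the comparison of E4 with E2 is between 2 regimens adjusted by that measure and not at equal mass.

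Long-chain fatty acids reach a tissue largely as triglyceride in circulating lipoproteins. Lipoprotein lipase (Lpl) releases them at the capillary wall, where Gpihbp1 on endothelial cells binds the enzyme and carries it to the lumen. CD36 and the fatty acid transport proteins encoded by Slc27 genes then promote uptake, and the Slc27 proteins also act as acyl-CoA synthetases that trap the fatty acid as its CoA ester. Fat around arteries, capillaries of the adventitia and smooth muscle are all places where members of this system are known to act.

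Library totals ranged from 24647246 to 64221401 counts. Levels are given as CPM, counts relative to library size after TMM scaling, and comparisons between genes as CPM per kb of merged exons. The arterial identity of the samples was visible in the smooth muscle list (8 genes such as Acta2 and Myh11, summed level 2894 to 9941 CPM) and the endothelial list (8 genes, 634 to 1281 CPM). Other tissue was present as well. White adipocyte genes summed to 2520 to 5987 CPM, brown adipocyte genes to 589 to 2402 CPM and sympathetic ganglion genes to 34.4 to 7569 CPM. Vehicle replicate C5 and TAM replicate C35 stood apart in the ganglion list, with sums of 34.4 and 192 CPM, against at least 1948 CPM in E2 and 4380 CPM in E4 libraries. Thyroid and parathyroid genes summed to 2972 CPM in E4 replicate C38, the E4 median being 16.3 CPM, and T cell genes to 252 CPM in E2 replicate C9, the E2 median being 8.04 CPM. Expression in such a mixture does not tell fewer cells of a type from less RNA per cell.

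The Slc27 genes are close enough in sequence that reads might in principle be shared between them. Among all pairs, the longest identical coding stretch was 26 bases, between Slc27a1 (chr8:71580192-71580612, exons 6 and 7 of its main transcript) and Slc27a4 (chr2:29809709-29809838, exons 5 and 6), on the + strand in both and spanning an exon junction in both (GRCm38, GENCODE). It is shown because it is the only stretch longer than 16 bases shared by any pair.
Slc27a1 and Slc27a4: gctgccattgtggtgcacagcaggta
Slc27a2 and Slc27a6 shared at most 16 bases. The pairs Slc27a2 with Slc27a3, Slc27a3 with Slc27a4 and Slc27a3 with Slc27a6 shared at most 14 bases each.
Slc27a2 and Slc27a3: ctgctgctgctgcc
Slc27a3 and Slc27a4: gagggctttgaccc
These runs are short beside the 150-base reads that the study describes. Slc27a2 overlaps the opposite-strand transcript Gm26697 over 419 exon bases (11.2% of its merged exons), and the strand setting of the counting is not stated.

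Per length, Cd36 and Lpl were the most abundant genes of the set, with means over the 24 libraries of 133 and 91.6 CPM per kb. Slc27a1 followed at 39.1, Slc27a4 at 13.3, Gpihbp1 at 8.46, Slc27a2 at 7.12, Slc27a3 at 2.59 and Slc27a6 at 0.577 CPM per kb. In vehicle, the library ranges of Gpihbp1 (10.6 ± 3.30 CPM per kb, SD, n = 6), Slc27a4 (10.6 ± 2.35) and Slc27a2 (8.25 ± 5.13) overlapped. Those of Cd36 (143 ± 44.4) and Lpl (97.8 ± 31.1) also did, though within each library Cd36 was the higher on this measure. The order of these 2 depends on the gene length used, since division by the longest transcript in place of merged exons gave 151 CPM per kb for Cd36 and 249 for Lpl in vehicle. With E2, Slc27a2 and Slc27a3 lay side by side (2.54 ± 1.07 and 2.83 ± 0.181 CPM per kb). Slc27a1 held the main share of the summed Slc27 level in each group, 65.2% in vehicle, 63.0% with E2, 61.4% with E4 and 59.5% with TAM, while the share of Slc27a2 was 12.04%, 5.31%, 11.4% and 14.1%.

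**Figure D1:**
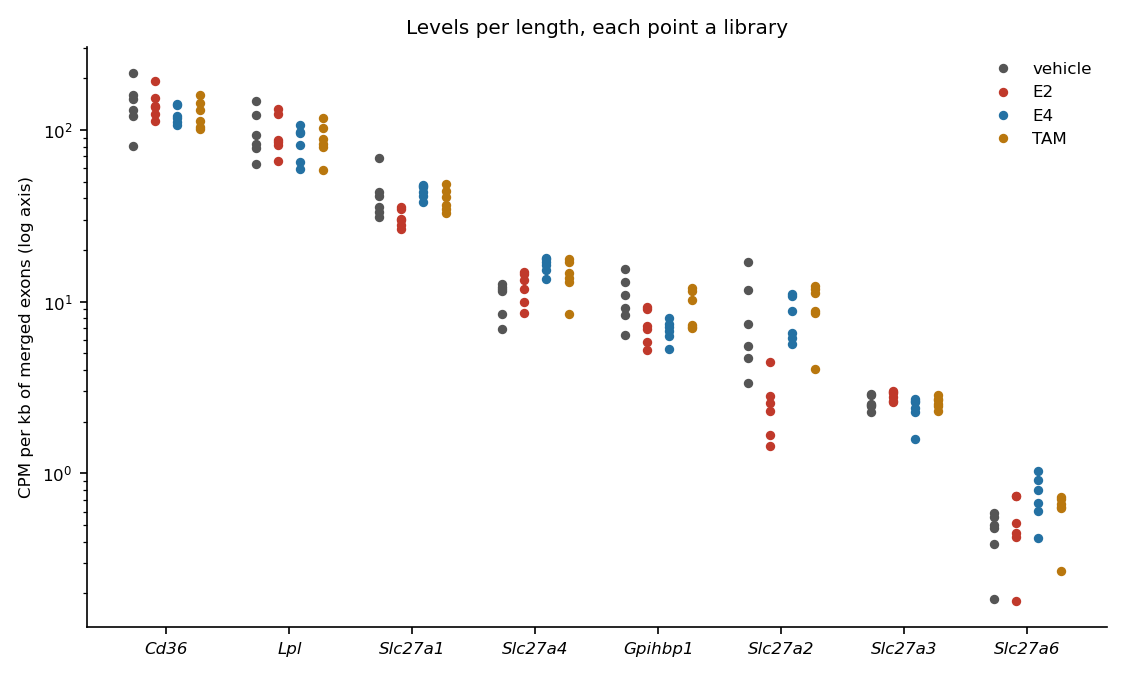
CPM per kb of merged exons (vertical log axis) for each gene, 1 point per library, coloured by group with 6 libraries each. Cd36 and Lpl sit highest and Slc27a6 lowest, and the E2 points of Slc27a2 lie near those of Slc27a3.

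Slc27a2 (ENSMUSG00000027359; chromosome 2, 126552407 to 126588243, + strand) encodes a very long-chain acyl-CoA synthetase best known from liver and kidney, where it acts in uptake and at peroxisomes. It varied most among the genes of the set, with an 11.7-fold ratio of highest to lowest library, whereas Slc27a6 varied 5.74-fold and the others 1.90-fold to 2.95-fold. Vehicle libraries ranged from 12.5 to 63.5 CPM with a median of 24.3. E2 libraries ranged from 5.41 to 16.6 CPM with a median of 9.17. E4 libraries ranged from 21.3 to 41.8 CPM with a median of 28.9, and TAM libraries from 15.2 to 46.6 CPM with a median of 37.8. Every E4 library therefore exceeded every E2 library. E2 overlapped vehicle through E2 replicate C9 (16.6 CPM) and vehicle replicate C4 (12.5 CPM), and overlapped TAM through TAM replicate C11. The log2 fold change was -1.70 ± 0.35 (SE) for E2 against vehicle, 1.69 ± 0.35 for E4 against E2 and 1.90 ± 0.35 for TAM against E2. E4 and TAM were at -0.01 ± 0.34 and 0.20 ± 0.34 against vehicle. The E4 value depended on marker covariates, each used alone. It was 0.92 with the brown adipocyte, 0.47 with the ganglion, 0.43 with the B cell, 0.37 with the white adipocyte and -0.02 with the skeletal muscle list. Vehicle replicate C5 was the highest library of all, and without it the E2 against vehicle value was -1.35. Title numbers fall into a lower and a higher series, which the labels do not call batches. Within them the value was -1.34 and -2.19.

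**Figure D2:**
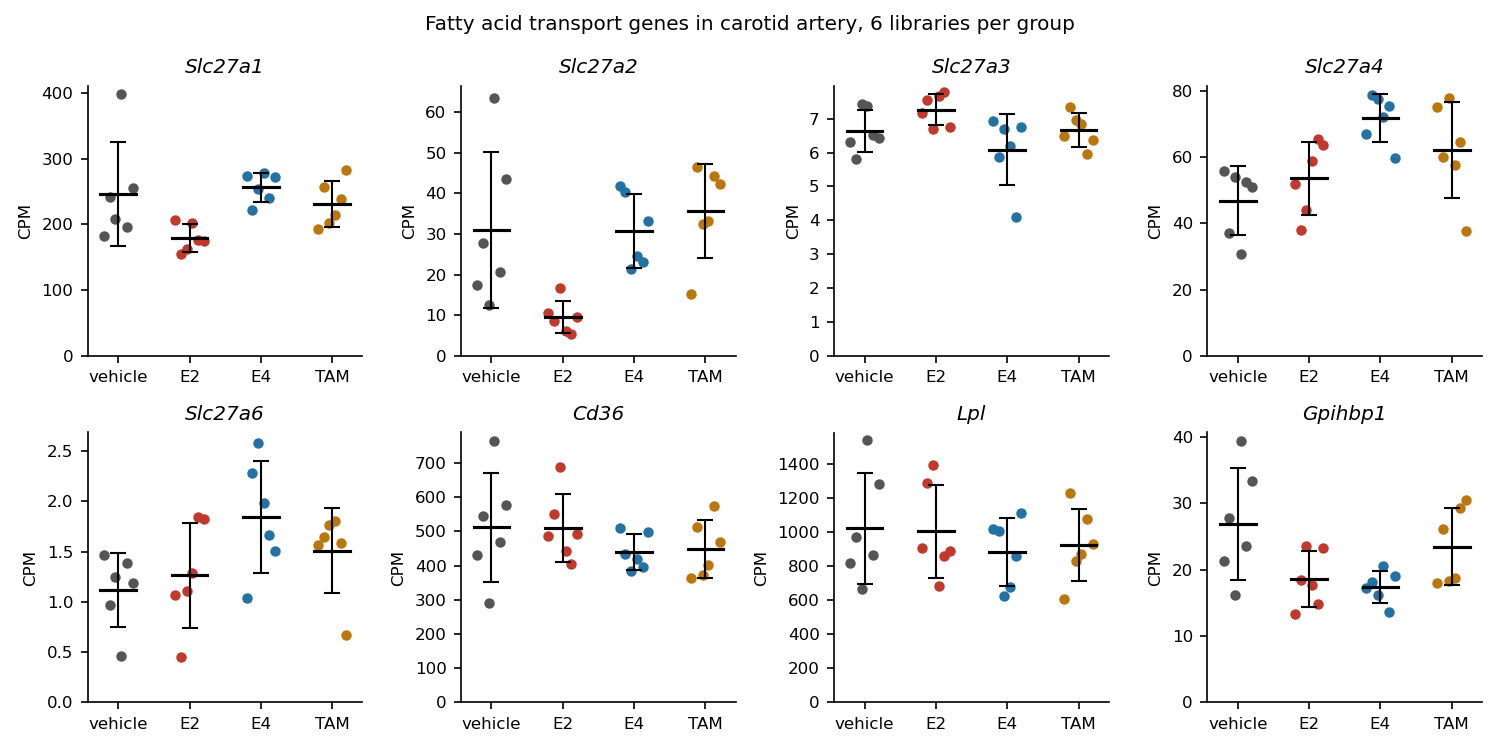
CPM of the 8 genes in each library (points), with the group mean (bar) and SD (whiskers), n = 6 per group and a vertical axis starting at 0. The E2 points of Slc27a2 lie between 5.41 and 16.6 CPM and all E4 points at 21.3 CPM or above.

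Ratios within a library restate the Slc27a2 values that chose the set and are given as a description. The ratio of Slc27a2 to Cd36 was 0.0134 to 0.0242 in E2 libraries, 0.0407 to 0.0830 in vehicle, 0.0555 to 0.0929 in E4 and 0.0416 to 0.0907 in TAM. The ratio to Lpl was at most 0.0119 with E2 and at least 0.0189 in vehicle. The ratio to Slc27a1 was 0.0306 to 0.102 with E2, overlapping vehicle (0.0604 to 0.171), E4 (0.0839 to 0.182) and TAM (0.0787 to 0.186). The ratio of Lpl to Cd36 averaged 2.01, 1.95, 1.99 and 2.05 in vehicle, E2, E4 and TAM.

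Among the genes whose pattern over the 24 libraries was most like that of Slc27a2, out of 19527 genes with a mean of at least 1 CPM, were Ehhadh and Acot2 (Pearson r of log2 CPM 0.91 and 0.87). Ehhadh encodes an enzyme of peroxisomal β-oxidation and Acot2 a mitochondrial acyl-CoA thioesterase. Ehhadh was at 40.3 ± 13.6 CPM in vehicle, 27.8 ± 5.38 with E2, 42.0 ± 5.67 with E4 and 44.0 ± 9.80 with TAM (SD, n = 6 each). Acot2 was at 14.4 ± 2.98, 11.8 ± 1.20, 15.98 ± 1.51 and 15.5 ± 1.72 CPM in the same order. The low E2 means follow from choosing genes by their likeness to Slc27a2 and add nothing to it. These libraries share tissue makeup, so the correlations describe the libraries and carry no test. Within groups, Slc27a2 also moved with the brown adipocyte list (r = 0.78), the white adipocyte list (0.72) and the capillary list (0.72).

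**Figure D3:**
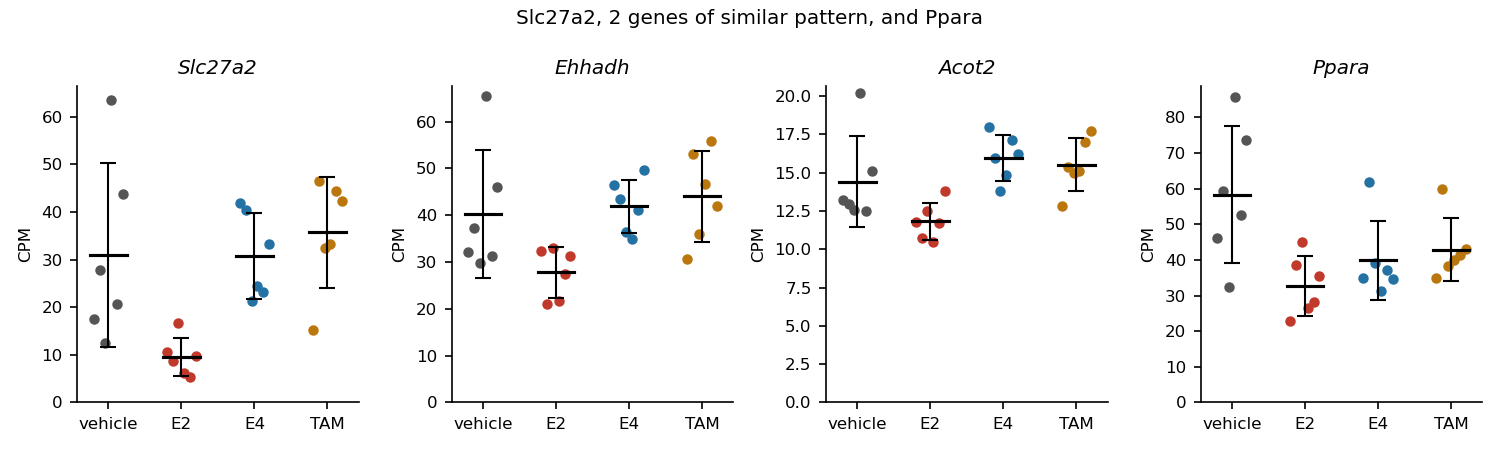
CPM of Slc27a2, of Ehhadh and Acot2, whose patterns were like it, and of Ppara in each library (points), with group mean and SD, n = 6 per group. E2 has the lowest mean in each panel, which follows from how the genes were chosen. Ppara was named for its call in E2 against vehicle.

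Slc27a1 (ENSMUSG00000031808; chromosome 8, 71568882 to 71587302) encodes the insulin-responsive transporter of fat and muscle. E2 libraries ranged from 154 to 207 CPM (median 176), E4 libraries from 222 to 278 CPM (median 263), vehicle libraries from 182 to 398 CPM (median 224) and TAM libraries from 193 to 283 CPM (median 226). All E4 libraries lay above all E2 libraries. Slc27a1 was the 1 of the 7 genes that passed the test in E4 against E2, with a log2 fold change of 0.51 (SE 0.15, Benjamini-Hochberg adjusted p = 0.0256 in the quasi-likelihood test of edgeR). Among all 25033 genes tested, 12.5% passed in that comparison, 3.55% with higher expression, and 2.04% had every E4 library above every E2 library. E2 against vehicle gave -0.46 (SE 0.15, adjusted p = 0.0843). The E4 against E2 call did not hold without E2 replicate C8 or C9 (log2 fold change 0.47 without C8). The genes most like Slc27a1 were Pcsk4, Pim3 and 2810410L24Rik (r = 0.83, 0.83 and 0.82). Slc27a1 ran against the ganglion list within groups (r = -0.77), and its highest library, vehicle replicate C5 at 398 CPM, was the lowest in that list. With the ganglion list as a covariate the E4 against E2 value was 0.60 (adjusted p = 0.000214, edgeR), and without vehicle replicate C5 and TAM replicate C35 it was 0.53 (adjusted p = 0.000893). The call did not hold with the macrophage list as a covariate (1.25, adjusted p = 0.167, edgeR). Slc27a1 moved with that list within groups (r = 0.62), while over all libraries r was -0.35. In E4 against E2, 8 of 8 genes of the list passed, all lower with E4. In the first and second title number series alone the value was 0.51 and 0.53 (adjusted p = 0.174 and 0.415).

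Slc27a4 (ENSMUSG00000059316; chromosome 2, 29802634 to 29817522), a transporter and acyl-CoA synthetase of the endoplasmic reticulum known from gut and skin, was higher with E4 than with vehicle. Vehicle libraries ranged from 30.7 to 55.9 CPM (median 51.8) and E4 libraries from 59.7 to 78.8 CPM (median 73.7), without overlap. E2 libraries lay at 38.002 to 65.5 CPM and TAM libraries at 37.6 to 77.8 CPM, between and across both. The log2 fold change of E4 against vehicle was 0.61 (SE 0.17, adjusted p = 0.0125, edgeR). Slc27a4 and Gpihbp1 were the 2 of the 7 genes that passed the test in this comparison, in which 22% of all genes tested passed, 9.52% with higher and 12.5% with lower expression, and 5.3% of all genes had every E4 library above every vehicle library. The 2 of 7 is thus near the background.

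Slc27a4 levels followed the sympathetic ganglion genes closely (within-group r = 0.82 over 24 libraries), and 9 of the 9 ganglion markers were tested, with summed levels of 34.4 to 5524 CPM in vehicle, 1948 to 5424 with E2, 4380 to 7569 with E4 and 192 to 7165 with TAM. Of the 9, 0 passed in E4 against vehicle by edgeR or by DESeq2 and 1 had an unadjusted p under 0.05, at a median log2 fold change of 0.95. With the ganglion list as a covariate the Slc27a4 value was 0.36 (adjusted p = 0.0233, edgeR), with the brown adipocyte list it was 0.33 (adjusted p = 0.224), and with the B cell list it was 0.38 (adjusted p = 0.494). The 3 genes most like Slc27a4 were Ap2b1, Hk1 and Irgq (r = 0.99, 0.98 and 0.98). In the second title number series alone the value was 0.42 (adjusted p = 0.404).

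Slc27a6 and Slc27a3 were the least abundant members. Slc27a6 (ENSMUSG00000024600), a transporter known from heart, followed Slc27a4 across libraries (r = 0.88) and was most like Gm15740, Wdr25 and Abhd8 (r = 0.94, 0.93 and 0.92). Its medians were 1.22 CPM in vehicle, 1.20 with E2, 1.82 with E4 and 1.62 with TAM, with overlapping ranges, and E4 against vehicle gave 0.71 (SE 0.30, adjusted p = 0.0883, edgeR). Its counts were 19 to 110 per library, so that it was measured less precisely than the rest. TAM replicate C35, low in ganglion genes, had 0.673 CPM against 1.57 to 1.81 in the other TAM libraries. Slc27a3 (ENSMUSG00000027932), which has acyl-CoA synthetase activity, was the steadiest gene by its ratio of highest to lowest library (1.90). Within E4 it was not, with an SD of 17.3% of the mean against 8.71% for Slc27a1. It was most like Gmppb, Gm18840 and Tmem119 over the libraries (r = 0.80, 0.79 and 0.79). Slc27a3 was at 6.65 ± 0.626, 7.27 ± 0.464, 6.09 ± 1.05 and 6.66 ± 0.492 CPM in vehicle, E2, E4 and TAM (SD, n = 6 each). Its largest difference was E4 against E2, at -0.25 (SE 0.10, adjusted p = 0.0939, edgeR). Within groups Slc27a3 ran against the thyroid and parathyroid list (r = -0.62) and moved with the macrophage list (0.57). Its lowest library, E4 replicate C38 at 4.09 CPM, held 2972 CPM of thyroid and parathyroid genes. A link between these values was not tested.

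Cd36 (ENSMUSG00000002944; chromosome 5, 17781690 to 17888801), the scavenger receptor that binds long-chain fatty acids, ranged from 290 to 766 CPM in vehicle, 405 to 687 with E2, 384 to 510 with E4 and 364 to 574 with TAM. The groups overlapped throughout. E2 against vehicle was -0.0045 on the log2 scale, with a 95% interval from -0.36 to 0.35. E4 against vehicle was -0.22 (interval -0.58 to 0.14) and TAM against vehicle -0.19 (-0.55 to 0.17). Cd36 moved with the white adipocyte list within groups (r = 0.82), and with Lpl over all libraries (r = 0.86). The genes most like Cd36 were Acadm, Echs1 and Adhfe1, of which Acadm and Echs1 encode mitochondrial fatty acid oxidation enzymes.

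Lpl (ENSMUSG00000015568; chromosome 8, 68880491 to 68907448) ranged from 665 to 1540 CPM in vehicle, 687 to 1394 with E2, 624 to 1116 with E4 and 609 to 1229 with TAM. Its log2 fold changes against vehicle were -0.03 (95% interval -0.47 to 0.41) with E2, -0.21 (-0.65 to 0.23) with E4 and -0.15 (-0.59 to 0.29) with TAM. None of these passed the test. Lpl moved with the white adipocyte list within groups (r = 0.83), as Cd36 did. The genes most like Lpl were Aldh6a1, Adhfe1 and Mospd1 (r = 0.88, 0.87 and 0.87).

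Gpihbp1 (ENSMUSG00000022579; chromosome 15, 75596628 to 75599481), the endothelial partner of Lpl, was at 26.9 ± 8.42 CPM in vehicle, 18.6 ± 4.23 with E2, 17.5 ± 2.42 with E4 and 23.5 ± 5.83 with TAM (SD, n = 6 each). Vehicle libraries ranged from 16.3 to 39.4 CPM (median 25.7) and E4 libraries from 13.6 to 20.6 CPM (median 17.7), so the groups overlapped. The log2 fold change of E4 against vehicle was -0.62 (SE 0.19, adjusted p = 0.0244, edgeR), and E2 against vehicle was -0.54 (SE 0.19, adjusted p = 0.129). The E4 call did not hold without vehicle replicate C3, C5 or C25, or without E4 replicate C20 or C38, with values of -0.48 without C5 and -0.73 without vehicle replicate C4 at the extremes. Gpihbp1 followed the capillary endothelium list (within-group r = 0.96), of which 7 of 7 genes were tested and 1 was higher (Timp4) and 1 lower (Meox2) with E4, near the 22% of all genes, with summed levels of 140 to 261 CPM in vehicle, 139 to 200 with E2, 167 to 212 with E4 and 169 to 263 with TAM. With that list as a covariate, E4 against vehicle was -0.53 (adjusted p = 2.32e-05, edgeR). The call did not hold with the brown adipocyte (-0.16, adjusted p = 0.599), ganglion (-0.39, 0.106), B cell (-0.37, 0.599) or macrophage (-0.51, 0.0793) list as a covariate. It was also lost in the first and second title number series alone (-0.61 and -0.67, adjusted p = 0.153 and 0.352, edgeR). The same held without vehicle replicate C5 and TAM replicate C35 together. Gpihbp1 also moved with the brown adipocyte list within groups (r = 0.72). The genes most like it were Rbm38, Pald1 and Btnl9. Gpihbp1 relative to Lpl was 0.0245 to 0.0286 in vehicle, 0.0143 to 0.0262 with E2, 0.0158 to 0.0304 with E4 and 0.0213 to 0.0327 with TAM, all overlapping.

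**Figure D4:**
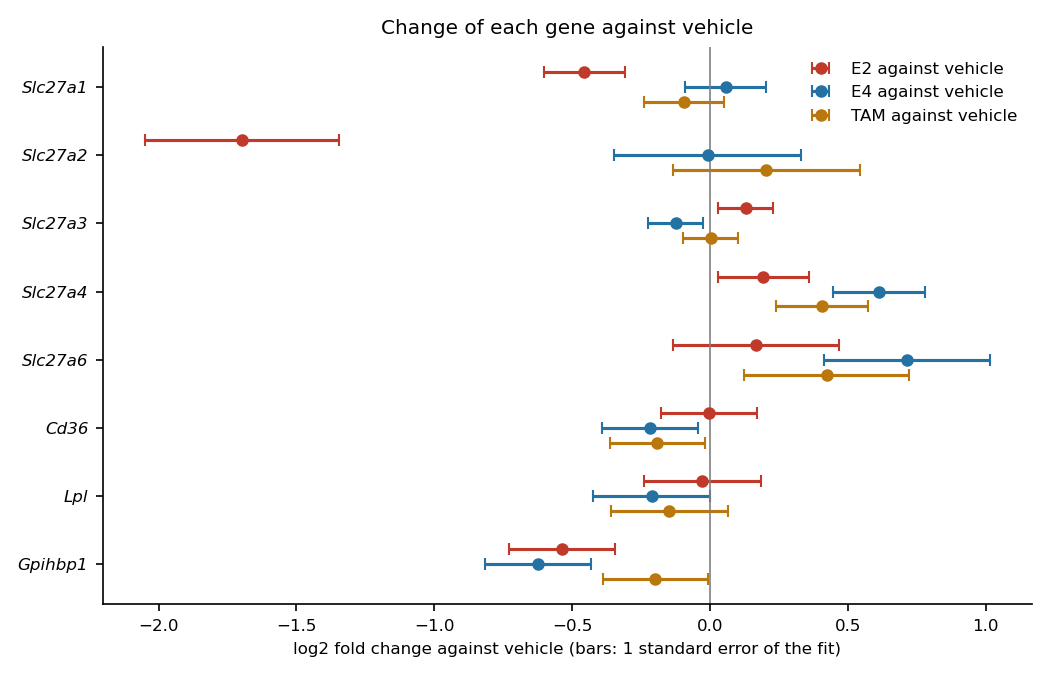
log2 fold change of each gene against vehicle for E2, E4 and TAM (points), with 1 standard error of the fit (bars). Slc27a2 with E2 lies at -1.70, and Slc27a4 and Gpihbp1 with E4 lie at 0.61 and -0.62.

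In E2 against vehicle, 0 of the 7 genes other than Slc27a2 passed the test of edgeR, where 4.16% of all genes did, while 2 (Slc27a1 and Gpihbp1) had an unadjusted p under 0.05 and DESeq2 called 1 (Slc27a1). For TAM, 0 of 7 passed against vehicle (2.21% of all genes), against E2 (6.44%) and against E4 (0.34%) by edgeR, DESeq2 likewise called 0, and 1 gene had an unadjusted p under 0.05 in each, Slc27a4, Slc27a1 and Gpihbp1. The median log2 fold change of the 7 against vehicle was -0.0045 with E2, -0.12 with E4 and -0.094 with TAM, beside 0.0060, -0.014 and -0.0033 over all genes tested. The largest difference of any of the 7 over the 6 comparisons was that of Slc27a6 in E4 against vehicle (0.71).

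**Figure D5:**
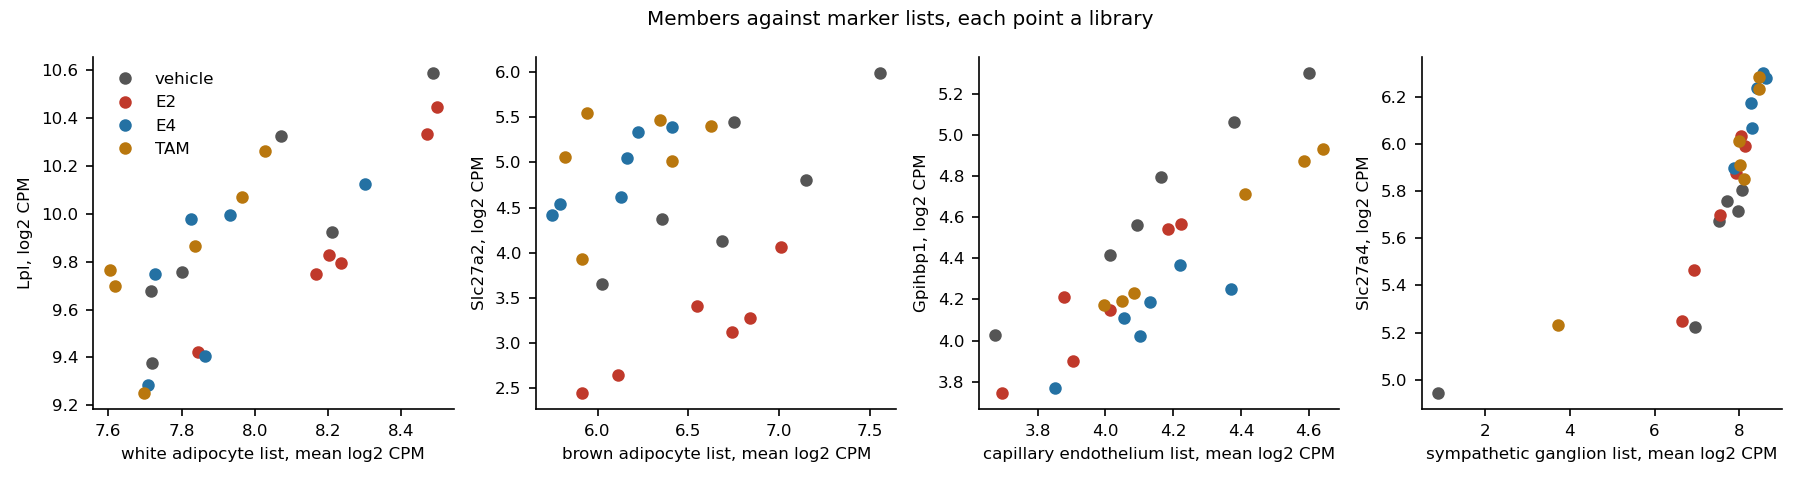
log2 CPM of 4 genes (vertical axes) against the mean log2 CPM of a marker list (horizontal axes), 1 point per library, coloured by group. Lpl rises with white adipocyte genes, Gpihbp1 with capillary endothelium genes and Slc27a4 with ganglion genes. The Slc27a2 panel, against brown adipocyte genes, holds the low E2 values by which the set was chosen.

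In the brown adipocyte list, 5 of 6 genes (Ucp1 among them) were lower with E4, where 12.5% of all genes were, with summed levels of 861 to 2402 CPM in vehicle, 661 to 1586 with E2, 589 to 920 with E4 and 735 to 1219 with TAM. No marker of this list was at 0. With E2, 1 of 6 was lower (Cidea). In the white adipocyte list, 1 gene was higher and 2 were lower with E4, and 1 was higher and 1 lower with E2, of 8. In the fibroblast list, 4 of 6 were lower with E4. All 8 macrophage genes were higher with E2, where 4.16% of all genes passed in either direction, with 527 to 948 CPM summed in vehicle and 872 to 1338 with E2. All 6 B cell genes were lower with E4. The part of these cells in the transport gene values was not tested.

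Pathway list counts are read against the 4.16% of all genes that passed with E2 and the 22% with E4. Of 10 tested genes that regulate or assist Lpl, 1 rose with E2 and 2 rose and 1 fell with E4, near that background. Of the 11 pathway gene calls with E4, 0 held with the B cell covariate or in the second title number series alone, where 102 and 5 of all genes were called in place of 5514. Of the 3 calls with E2 (Lmf1, Acsl5 and Ppara), 0 held with the macrophage covariate or in the first series alone. With TAM against vehicle, 0 of the 60 tested genes in these and the following pathway lists passed by edgeR, while 15 had an unadjusted p under 0.05 and DESeq2 called 4. Lmf1, the chaperone that folds Lpl, ranged from 18.8 to 22.8 CPM in vehicle and from 23.3 to 27.9 with E2. The log2 fold change was 0.33 with E2 (SE 0.07, adjusted p = 0.00301, edgeR) and 0.25 with E4 (adjusted p = 0.00987, edgeR). Neither call held in the first or second title number series alone (0.31 and 0.38 with E2, 0.16 and 0.39 with E4), nor did that of E2 with the macrophage covariate (0.23) or that of E4 with the B cell covariate (0.22) or upper quartile scaling (0.18). Furin and Pcsk6, proprotein convertases that can cleave Lpl, moved oppositely with E4, at 0.32 (SE 0.10, adjusted p = 0.0242) and -0.54 (SE 0.18, adjusted p = 0.0359). With the brown adipocyte, ganglion and macrophage covariates Pcsk6 was at -0.18, -0.22 and -0.28 and not called. The Pcsk6 call also did not hold in the 2 groups alone, in the first series alone, without the low-count filter or without both low-ganglion libraries. It was lost without vehicle replicate C5 or E4 replicate C16, C19, C20 or C38 as well. The Furin call did not hold with upper quartile scaling, in the first series alone, or without vehicle replicate C3 or E4 replicate C20 or C39. Angptl8 was lower with E4 and with TAM than with E2 (-0.76 and -1.19). Of the 10 genes, 2 passed in E4 against E2 and 1 in TAM against E2, where 12.5% and 6.44% of all genes did.

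Among 14 tested genes of fatty acid binding and activation, 1 rose with E2 and 1 rose and 2 fell with E4, likewise near the background. Acsl5, a long-chain acyl-CoA synthetase, had 127 ± 29.1 CPM in vehicle and 181 ± 29.8 with E2 (SD, n = 6 each; log2 fold change 0.50, SE 0.13, adjusted p = 0.0239, edgeR). With the macrophage covariate it was at 0.23 (adjusted p = 0.450) and with the white adipocyte covariate at 0.40 (adjusted p = 0.0513). The call also did not hold with the skeletal muscle covariate, upper quartile scaling, the 2 groups alone or the second series alone, or without vehicle replicate C2, C4, C24 or C25 or E2 replicate C6 or C29. With E4, Got2 was higher by 0.85 (adjusted p = 0.0347), and Fabp3 and Fabp4, cytosolic fatty acid binding proteins, fell by 0.62 and 0.53 on the log2 scale (adjusted p = 0.0245 and 0.0432). None of these 3 calls held with the brown adipocyte covariate, where Got2, Fabp3 and Fabp4 were at 0.39, -0.11 and -0.0099, with the macrophage covariate or in the first series alone. Fabp3 and Fabp4 were also not called with the ganglion covariate (-0.39 and -0.24) or without both low-ganglion libraries. None of the 3 held without vehicle replicate C3 or C5 or without E4 replicate C20 or C38. Got2 also needed vehicle replicate C25 and E4 replicate C19, Fabp3 needed E4 replicate C36, and Fabp4 needed vehicle replicate C25, E2 replicate C6, TAM replicate C12 and E4 replicates C16, C19 and C36.

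Of 19 mitochondrial genes, 0 passed with E2 by edgeR or DESeq2 (3 had an unadjusted p under 0.05), and with E4 Cpt1a rose by 0.82 (SE 0.20, adjusted p = 0.00697, edgeR) while Cpt1b fell by 0.63 (adjusted p = 0.0411). These are the carnitine palmitoyltransferases that admit long-chain fatty acids to mitochondria, Cpt1b being the muscle and brown fat form. The Cpt1a call did not hold with the B cell or brown adipocyte covariate (0.53 and 0.48) or in the second title number series alone (0.47). The Cpt1b call did not hold without vehicle replicate C3, C5 or C25 or E4 replicate C19, C20, C36, C38 or C39. With the brown adipocyte covariate Cpt1b was at 0.0493 and not called. Its call was also lost with the ganglion or macrophage covariate and with title number series as a covariate. The same held in the 2 groups alone, in the first series alone and without both low-ganglion libraries. Of 9 peroxisomal genes, 0 passed with E2 by either tool (2 had an unadjusted p under 0.05) and 2 fell with E4, namely Abcd2 (-0.46) and Crot (-0.38), again near the 22% of all genes. Neither held with the B cell covariate (-0.37 and -0.25), nor Abcd2 with the brown adipocyte covariate (-0.30) or in the first series alone. In E4 against E2, 2 of the 9 passed, where 12.5% of all genes did. Crot was lower with E4 (-0.27) and Ehhadh higher (0.59). Ehhadh was among the genes most like Slc27a2, so its value adds nothing to that of Slc27a2.

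Of 8 PPAR receptors and partners, which govern many of these genes in other tissues, Ppara fell with E2 and Rxra rose with E4. Ppara ranged from 32.3 to 85.7 CPM in vehicle and from 22.8 to 45.0 with E2, overlapping, with a log2 fold change of -0.83 (SE 0.21, adjusted p = 0.0221, edgeR). The call did not hold with the macrophage, B cell or skeletal muscle covariate (-0.84, -0.69 and -0.81), in the 2 groups alone, without vehicle replicate C5 or C25 or without E2 replicate C6, C26 or C27. Rxra ranged from 48.9 to 76.7 CPM in vehicle and from 88.4 to 142 with E4. Every E4 library was above every vehicle library, as for 5.3% of all genes. The log2 fold change was 0.65 (SE 0.12, adjusted p = 0.000966, edgeR). Across the 24 libraries Slc27a2 had an r of 0.68 with Ppara and 0.03 with Rxra, given as a description. In the same list it was 0.69 with Ppargc1b, 0.63 with Ppargc1a, 0.47 with Rxrg, 0.46 with Rxrb, 0.34 with Pparg and 0.18 with Ppard. The mitochondrial gene Acadl had an r of 0.72, so such an r was not particular to Ppara.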

How the data were processed

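RNA of mouse carotid arteries was sequenced in 24 libraries (stranded mRNA kit, 150-base paired reads). Per the submitters' processing notes, bcl2fastq 2.17, Trim Galore, Bowtie2 and featureCounts were used with build GRCm38 (mm10), and the authors deposited 1 table of estimated counts per library, not normalized. Decimals, present in 8.87% to 9.80% of values, were rounded off before testing. Among low whole values the ratio of odd to even ones was 0.794 in the median library. The column header of vehicle replicate C2 alone names read 2.

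Counts were tested with edgeR 4.0.16 in R 4.3.3 (TMM scaling, default low-count filter, quasi-likelihood test, Benjamini-Hochberg adjustment over 25033 genes) in a single fit of 4 groups without covariates, for 6 contrasts. Genes with an adjusted p under 0.05 were called. Standard errors come from the F statistic. DESeq2 1.42.0, other scalings, filters, library subsets and marker covariates were alternatives, of which the brown adipocyte, capillary and macrophage covariates and the joint removal of 2 libraries were chosen after seeing the data. The procedure was tested on simulated data. Figures were drawn with matplotlib 3.10.9.

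The genes and lists were chosen with earlier results of these data known. Named besides the set were up to 3 called genes of largest change per pathway list and contrast with vehicle, and the 3 genes most correlated with each member. Genes named from other contrasts (Angptl8, Crot, Ehhadh) and single markers were named after their values were seen. The peroxisomal list and the genes most like Slc27a2 are given without genes that are not reported here.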

Additional observations from a re-analysis of the deposited data

Results flagged for a closer look

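Of 52 sets of 6 libraries examined (the 8 genes, 4 marker lists, namely white adipocyte, brown adipocyte, capillary endothelium and sympathetic ganglion, and library totals, by group), 6 held a library far from the others of its group, where chance alone gives about 2.6. Vehicle replicate C5 had 398 CPM of Slc27a1, against 182 to 255 in the other vehicle libraries. E4 replicate C38 had 4.09 CPM of Slc27a3, against 5.88 to 6.92, and also the lowest total, 24647246 counts against 37505055 to 44224858. TAM replicate C35 had 0.673 CPM of Slc27a6, against 1.57 to 1.81. The mean log2 CPM of the sympathetic ganglion list was 0.893 in vehicle replicate C5, against 6.96 to 8.06, and 3.72 in TAM replicate C35, against 7.98 to 8.46. Whether ganglion content bears on the Slc27a1 and Slc27a6 values of these libraries was not tested.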

How the results depend on the processing

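Counts of called genes are over the 7 genes other than Slc27a2. For E4 against vehicle (2 called), the first title number series alone, the macrophage covariate and omission of both low-ganglion libraries gave 1 each, the second series, the B cell and brown adipocyte covariates and a threshold of 0.01 gave 0, and leaving out 1 library gave 1 to 2. Of all genes, 5514 were called, but 5 in the second series, 102 with the B cell, 1884 with the brown adipocyte covariate and 2072 at 0.01. For E4 against E2 (1 called), upper quartile scaling, the second series, the macrophage covariate and 0.01 gave 0, the 2 groups alone, the ganglion covariate and omission of both libraries 2, the capillary covariate 4, and leaving out 1 library 0 to 2. Of all genes, 3134 were called, but 0 in the second series and with the macrophage covariate (where Slc27a1 was at 0.53 and 1.25), 2913 with upper quartile scaling, 886 at 0.01, and 5348, 4222, 6467 and 5430 in the 4 settings that gave more. For E2 against vehicle (0 called), the white adipocyte and macrophage covariates gave 2, the capillary covariate and DESeq2 1, and leave-one-out 0 to 1. For TAM against E2 (0 called), the white adipocyte covariate gave 2, the ganglion, brown adipocyte, capillary and macrophage covariates and omission of both libraries 1, and leave-one-out 0 to 1. TAM against vehicle (0 called) gave 1 with the capillary covariate. The causes were not tested.

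Over 44 alternatives each, Slc27a4 (E4 against vehicle) was called in 40, Gpihbp1 in 31 and Slc27a1 (E4 against E2) in 37. The alternatives include leaving out each library in turn, also those of groups outside the comparison. They share most of their data, so the counts are no measure of certainty. With the brown adipocyte covariate, Slc27a2 in E4 against vehicle changed from -0.01 to 0.92, and Cpt1b from -0.63 to 0.0493. Cpt1b and Fabp4 (E4) were called in 24 and 21 alternatives and neither held without the TAM libraries. Slc27a2 in E2 against vehicle ranged from -2.50 (macrophage covariate) to -1.21 (capillary covariate). Of 1798 uncalled values, 130 changed sign. No paired analysis was possible because the groups share no title numbers.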
